A study of Mus musculus with 15 samples.

Results

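A set of 9 transcription factor genes of biliary and simple epithelial identity were followed in mouse biliary epithelial cells after induced loss of Klf5: Onecut1, Onecut2, Sox9, Sox4, Foxa1, Foxa2, Elf3, Ehf and Grhl2. They were chosen by symbol, and all 9 were found among the 24421 gene symbols of the series. Cells had been given 4-OH Tamoxifen for 12 h (4 libraries) or 24 h (4 libraries), and control cells ethanol, labelled EtOH control, for 12 h (3 libraries) or 24 h (4 libraries). All 15 libraries share the C57BL/6 strain, the source (a line established from bile ducts of adult animals) and the genotype ITR-CreERT2;Klf5flox/flox, that is, floxed Klf5, which encodes a zinc finger factor of the Krüppel-like family, with a Cre recombinase switched on by tamoxifen. The controls therefore carry the recombinase and the floxed alleles too, and effects of tamoxifen, of recombinase activity and of Klf5 loss cannot be told apart. The labels state neither how many clones the line comes from nor whether the replicate libraries came from separate cultures, and the spread behind every p-value may thus be a technical one. The series names both 3D structures in vitro and biliary structures in vivo, so the growth form is not settled here.

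Cells of the bile duct are held in their state by several classes of transcription factor. The onecut homeobox factors and the SOX factors, which carry a high-mobility-group box, direct the formation of bile ducts in the mouse embryo. The FOXA forkhead proteins are pioneer factors, able to bind closed chromatin, and prepare liver and bile duct genes for use. The ETS factors Elf3 and Ehf are restricted to epithelia, and the grainyhead factor Grhl2 maintains genes of cell junctions, among them those of E-cadherin and claudins.

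Only the authors' comparison of tamoxifen with ethanol was analysed, in 1 table per time, so no value per library can be given and the spread is that of the standard error (SE). A level is the mean normalised read count over all libraries of a time. A fold is log2 of tamoxifen over ethanol, and a gene was called at an adjusted p under 0.05. An average library held 13.9 M normalised counts at 12 h and 11.8 M at 24 h. Klf5 itself was at 40.9% of the ethanol level at 12 h (95% interval 29.9% to 56.0%) and at 30.4% at 24 h (27.4% to 33.8%) in the authors' deposited tables. In those tables the keratin genes Krt8, Krt18 and Krt19 and the biliary gene Spp1 had means between 23752 and 48237 at 12 h, and between 6699.7 and 21895 at 24 h. Of the other biliary markers Tspan8, Cd24a, Jag1 and Slc4a2 were abundant, with means between 3665 and 9679 at 12 h, and between 2188 and 7153 at 24 h. Krt7, Pkhd1 and Muc1 had means between 65.2 and 515 at 12 h, and between 13.6 and 542 at 24 h. Aqp1, Prom1, Ggt1, Gpbar1, Cftr and Slc10a2 were barely expressed, with means between 0.150 and 7.34 at 12 h, and between 0.128 and 12.7 at 24 h. A further 2 of the 19 listed, Sctr among them, were at 0 in the authors' deposited tables. The epithelial adhesion gene Epcam was low, with means of 15.7 at 12 h and 9.56 at 24 h in the authors' deposited tables. Means of the 8 endothelial markers did not exceed 1.46, and of the 10 fibroblast and stellate markers 7 were at 0 at 12 h and 6 at 24 h in the authors' deposited tables. The highest of these 10 was the collagen gene Col1a1, with means of 29.6 at 12 h and 10.8 at 24 h in the authors' deposited tables.

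The levels of the 9 genes covered a wide range, and 2 of the 9 were barely expressed. Per kb of exon and per 1 M normalised counts, Sox4 stood highest at 40.9 at 12 h and 57.4 at 24 h, followed by Foxa2 at 36.7 and 33.9. Sox9 had 12.9 and 15.7 on the same scale, Onecut2 7.73 and 13.5, and Elf3 11.5 and 5.41. These genes form the middle of the range, and their order differs between the times, with Elf3 above Onecut2 at 12 h and below it at 24 h. Ehf (2.11 and 1.77) and Foxa1 (2.09 and 1.95) were low and close to each other. Onecut1 at 0.0621 and 0.0662 and Grhl2 at 0.0355 and 0.0272 closed the order. The spread of a level between libraries could not be computed, so neighbours in this order were not tested.

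**Figure D1:**
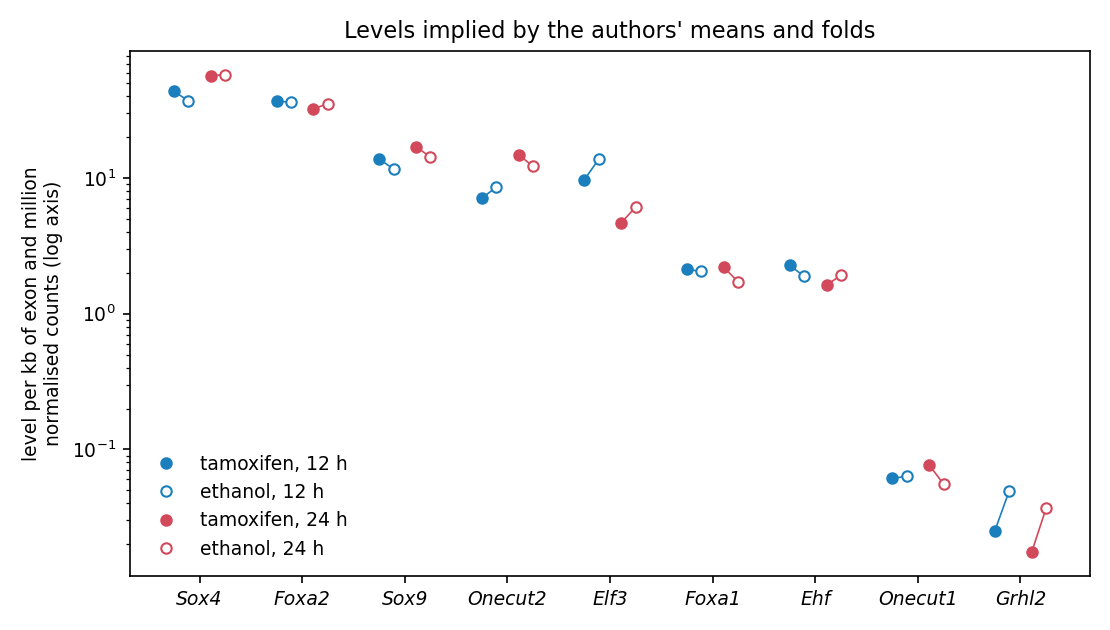
Level of each of the 9 genes per kb of exon and 1 M normalised counts (log axis) in tamoxifen (filled) and ethanol (open) at 12 h (blue) and 24 h (red), as implied by the authors' mean and fold, with no error shown. Sox4 and Foxa2 lie on top, and Onecut1 and Grhl2 lie below 0.1.

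The mean counts show how much data stands behind each gene. In the authors' deposited tables the mean normalised count was 2724 at 12 h and 3263 at 24 h for Sox4, 1744 and 2605 for Onecut2, and 1208 and 952 for Foxa2. It was 742 and 767 for Sox9, 353 and 142 for Elf3, 164 and 117 for Ehf, and 96.7 and 77.0 for Foxa1 in the same authors' deposited tables. Onecut1 had means of 3.55 and 3.22 and Grhl2 of 4.24 and 2.77 in the authors' deposited tables, about 22.2 to 29.7 normalised reads over all libraries of a time. At 24 h no adjusted p is given in the authors' deposited table for these 2 genes, whose means lie under 7.34, the lowest mean with one. Their folds and SE are given at both times, and changes in them were not detectable at this depth unless very large.

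Called members were few. At 12 h 0 of the 9 genes were called in the authors' deposited table, by DESeq2's Wald test, where 0.943% of 13044 genes with an adjusted p were called. Elf3 was the 1 gene of the 9 at an unadjusted p under 0.05 at 12 h in the authors' deposited table, against 4.9% of all genes with a p. At 24 h 1 of the 7 genes with an adjusted p, Onecut2, was called in the authors' deposited table, where 12.4% of 11648 genes were. Onecut2, Sox9, Foxa2 and Elf3 were under an unadjusted p of 0.05 at 24 h in the authors' deposited table, 2 higher and 2 lower, against 18.0% of all genes with a p. At the adjusted threshold the share called is near the background at both times, so these counts do not set the 9 genes apart from the rest. For each of the 9, the median SE of genes of similar mean was larger at 12 h than at 24 h. For Sox4 it was 0.134 at 12 h and 0.0481 at 24 h. The counts called at 12 h and at 24 h thus do not form a time course. In bulk RNA, fewer cells of a type and less RNA per cell cannot be told apart in any of these values.

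**Figure D2:**
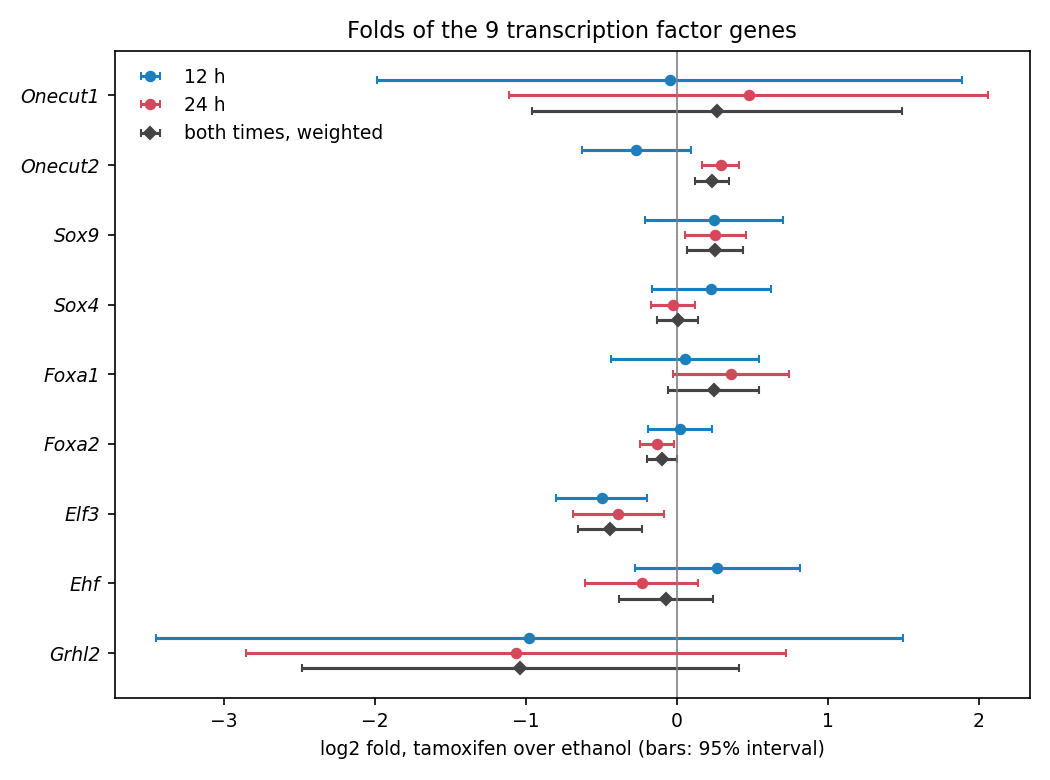
Log2 fold of tamoxifen over ethanol for each gene at 12 h (blue), at 24 h (red) and as the weighted estimate over both times (black diamonds), with 95% intervals. Elf3 lies below 0 with all 3 intervals, Onecut2 above 0 at 24 h, and Onecut1 and Grhl2 have intervals several log2 units wide.

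The times share no library, so the 2 folds of a gene were taken as independent and also averaged, weighted by the inverse of the squared SE. The result was tested over all 14981 genes with a p at both times. Whether libraries of both times came from the same cultures is not stated. Errors shared between the times would make the SE of this estimate too small, which was not tested. In this estimate 2 of the 9 genes were called, Elf3 as lower and Onecut2 as higher, beside 10.5% of all genes. At an unadjusted p under 0.05 there were 3, with Sox9 added, beside 20.8% of all genes. The median log2 fold of the 9 genes was 0.02 at 12 h, -0.03 at 24 h and 0.00 over both times (range -1.04 to 0.26). The ends of that range are the barely expressed Grhl2 and Onecut1, and the other members ran from -0.44 (Elf3) to 0.25 (Sox9). Over all genes the median log2 fold was -0.01 at 12 h and 0.01 at 24 h. The 9 genes thus showed no common direction: at 12 h 5 folds were positive and 4 negative, and at 24 h 4 were positive and 5 negative.

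Elf3, an epithelium-specific ETS factor, had the same direction at both times. Its log2 fold was -0.50 (SE 0.15) at 12 h in the authors' deposited table, with an adjusted p of 0.0966. The log2 fold at 24 h was -0.39 (SE 0.15) in the authors' deposited table, with an adjusted p of 0.0757. Neither time alone passed the threshold. Over both times Elf3 fell to 73.5% of the ethanol level (95% interval 63.5% to 85.2%), a log2 fold of -0.44 (SE 0.11) with an adjusted p of 0.000981 by the Wald test of the weighted estimate. The levels implied by the authors' means and folds were 300.01 normalised counts in tamoxifen and 424 in ethanol at 12 h, and 123 in tamoxifen and 161 in ethanol at 24 h. Among the genes of most similar mean, 93.5% had a smaller absolute fold than Elf3 at 12 h and 88.1% at 24 h. This share was 94.5% at 12 h and 94.0% at 24 h for Onecut2, and 89.6% and 91.0% for Sox9. The remaining members lay below Elf3 in this share at both times. The difference between the folds of Elf3, 24 h minus 12 h, was 0.11 (SE 0.22).

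Elf3 (ENSMUSG00000003051.13) spans 135253575 to 135258568 of chromosome 1 (GRCm38, reverse strand). An antisense gene, Gm26642, covers 7.3% of its exon bases, and the library kit does not mark the strand, so reads there cannot be told apart. RefSeq promoter windows, from 250 bases before to 50 after a transcript's start, were held for 5 of the 9 genes: Elf3, Foxa1, Foxa2, Onecut1 and Sox4. They were searched on both strands for CCNCNCCC, a general form of the box that Krüppel-like factors and SP factors bind, and for its CACCC form CCNCACCC, whose matches are a subset of the first. Elf3, the member that fell over both times, is shown beside Sox4, whose interval over both times is narrow and spans 0. Each is given 5′ to 3′ on the strand of its gene, with matches of CCNCNCCC on either strand in capitals. The Elf3 window is chr1:135258423-135258722 and the Sox4 window chr13:28953650-28953949 (GRCm38.p6, reverse strand).
Elf3: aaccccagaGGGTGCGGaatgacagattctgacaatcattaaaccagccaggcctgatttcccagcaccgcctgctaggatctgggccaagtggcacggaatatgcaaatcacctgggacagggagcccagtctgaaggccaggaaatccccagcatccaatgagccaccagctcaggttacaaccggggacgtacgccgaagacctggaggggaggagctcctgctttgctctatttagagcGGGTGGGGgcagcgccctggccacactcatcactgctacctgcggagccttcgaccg
Sox4: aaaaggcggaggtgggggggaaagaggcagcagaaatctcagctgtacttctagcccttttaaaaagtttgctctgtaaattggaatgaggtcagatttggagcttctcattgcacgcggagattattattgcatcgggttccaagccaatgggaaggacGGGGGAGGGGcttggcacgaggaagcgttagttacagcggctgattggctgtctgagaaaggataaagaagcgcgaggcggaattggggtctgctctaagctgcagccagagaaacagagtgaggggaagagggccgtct

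The Elf3 window holds 2 matches of CCNCNCCC, beginning at -241 and -7 counted from 0 at the start, and both are of the CACCC form, read on the opposite strand. The Sox4 window holds 2 overlapping matches, at -90 and -88, and 0 of the CACCC form. Of 32851 RefSeq promoter windows, 49.5% hold CCNCNCCC and 16.6% the CACCC form. Onecut1 (7 and 3 matches of the 2 forms), Foxa1 (5 and 0) and the 3 windows of Foxa2 (0 to 5 and 0 to 2) complete the set. The CACCC form is thus not particular to Elf3, since windows of Onecut1 and Foxa2 hold it too. These matches describe the letters of the windows, and a link to any fold was not tested.

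Ehf, the other epithelium-specific ETS factor, was not called. Its log2 fold was 0.27 (SE 0.28) at 12 h and -0.23 (SE 0.19) at 24 h in the authors' deposited tables, with adjusted p of 0.999 and 0.505. The weighted estimate was 95.1% of the ethanol level with an interval of 76.8% to 118%. That interval overlaps the one of Elf3, and the difference between these related genes was not tested.

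Onecut2, a onecut homeobox factor that acts with Onecut1 in bile duct formation in mice, was the member called at 24 h. It rose to 122% of the ethanol level (95% interval 112% to 133%), by the authors' deposited table, in which its log2 fold was 0.29 (SE 0.06) and its adjusted p 9.10e-05. The implied levels at 24 h were 2866 normalised counts in tamoxifen and 2344 in ethanol. At 12 h its log2 fold was -0.27 (SE 0.18) in the authors' deposited table, with implied levels of 1602 in tamoxifen and 1932 in ethanol and an adjusted p of 0.999. The fold at 24 h minus that at 12 h was 0.56 (SE 0.19, 95% interval 0.18 to 0.94), with an adjusted p of 0.9999 over all genes by the Wald test of the difference. By size of p this difference ranked 29 of 14981 genes. The weighted estimate, at 117% of ethanol (108% to 127%, adjusted p of 0.00166), rests mostly on 24 h, since the SE at 12 h is larger. It averages folds of opposite sign and so does not show a rise at both times.

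Changes between the times were called for few genes of any kind. Of 14981 genes 2 differed at an adjusted p under 0.05, or 0.0134%, and 245 at an unadjusted p under 0.05, or 1.64%. That share is below the 0.05 that independent folds with exact SE would give even without any change. Whether the independence or the SE fail here was not tested, and the estimate over both times relies on both. Of the 9 genes 0 differed by the Wald test of the difference, and Onecut2 was the 1 gene under an unadjusted p of 0.05. The SE of the difference was 0.12 to 0.34 for the 7 expressed members, so small differences between the times were not detectable.

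Onecut1, also known as hepatocyte nuclear factor 6, could not be assessed. Its log2 fold was -0.05 (SE 0.99) at 12 h and 0.47 (SE 0.81) at 24 h in the authors' deposited tables, so the intervals ran from 25.2% to 371% and from 46.2% to 417% of the ethanol level. The RNA gene Gm20649 on the same strand shares 52.8% of its exon bases, which makes the assignment of its few reads uncertain. Onecut3, the remaining gene of the family, had means of 5.22 and 15.9 and log2 folds of -2.47 (SE 0.93) and -0.21 (SE 0.41) in the authors' deposited tables, with adjusted p of 0.345 and 0.823. Onecut2 was thus the onecut gene with a high level in these cells, which spans 64340020 to 64400987 of chromosome 18 (GRCm38, forward strand; ENSMUSG00000045991.19).

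Sox9, which marks bile duct cells and times duct formation in the mouse, had nearly the same fold at both times. The log2 fold was 0.25 (SE 0.23) at 12 h and 0.25 (SE 0.10) at 24 h in the authors' deposited tables, with adjusted p of 0.999 and 0.0903. The implied levels were 795 normalised counts in tamoxifen and 671 in ethanol at 12 h, and 835 in tamoxifen and 699.7 in ethanol at 24 h. Over both times it stood at 119% of ethanol (95% interval 105% to 136%), with an adjusted p of 0.0655 by the Wald test of the weighted estimate. It passed, at an adjusted p of 0.0465, when only genes with a mean of at least 100 at both times were adjusted over. The SE of Sox9 was 1.55 and 1.56 times the running median of genes of similar level.

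Sox4, which acts together with Sox9 in duct formation in the mouse, was the most abundant of the 9 genes and stayed close to its ethanol level at 24 h. Its log2 fold was 0.23 (SE 0.20) at 12 h and -0.03 (SE 0.07) at 24 h in the authors' deposited tables, with adjusted p of 0.999 and 0.880. The weighted estimate was 100.3% of ethanol with an interval of 91.2% to 110.3%. The antisense RNA gene Gm26735 shares 54.6% of the exon bases of Sox4 (chromosome 13, 28948919 to 28953713, reverse strand), and without strand its reads cannot be told from those of Sox4.

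The FOXA pioneer factors stood far apart in level per kb, and neither was called. Foxa2 had a log2 fold of 0.02 (SE 0.11) at 12 h and -0.13 (SE 0.06) at 24 h in the authors' deposited tables, with adjusted p of 0.999 and 0.129. Over both times Foxa2 was at 93.5% of ethanol (87.3% to 100.2%), the narrowest interval of the 9 genes on the log2 scale. Foxa1 had log2 folds of 0.05 (SE 0.25) and 0.36 (SE 0.20) in the authors' deposited tables, with adjusted p of 0.999 and 0.250, and stood at 118% of ethanol over both times (96.0% to 146%). The implied levels of Foxa2 at 24 h were 909 normalised counts in tamoxifen and 995 in ethanol, and those of Foxa1 86.6 in tamoxifen and 67.5 in ethanol.

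Grhl2, the grainyhead factor of simple epithelia, had too few reads to be assessed. Its log2 folds of -0.98 (SE 1.26) at 12 h and -1.07 (SE 0.91) at 24 h in the authors' deposited tables have intervals of 9.16% to 282% and 13.8% to 165% of the ethanol level. Its relatives Grhl1 and Grhl3 had means of 95.9 and 3.75 at 12 h and of 195 and 0.762 at 24 h in the authors' deposited tables, and the epithelial repressor Ovol2 was at 0. Of 13 genes known as epithelial targets of Grhl2, 7 had an adjusted p at 24 h in the authors' deposited table, of which 1 fell and 1 rose. Over all genes 12.4% were called at 24 h. The splicing regulator Esrp2 fell, with a log2 fold of -0.30 (SE 0.07) and an adjusted p of 0.000407, per the authors' deposited table. The claudin gene Cldn4 rose, by 1.24 (SE 0.44) with an adjusted p of 0.0400 and a mean of 11.6, per the authors' deposited table. The E-cadherin gene Cdh1, with a mean of 1851, had a log2 fold of -0.08 (SE 0.07) at 24 h in the authors' deposited table and an adjusted p of 0.556.

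**Figure D3:**
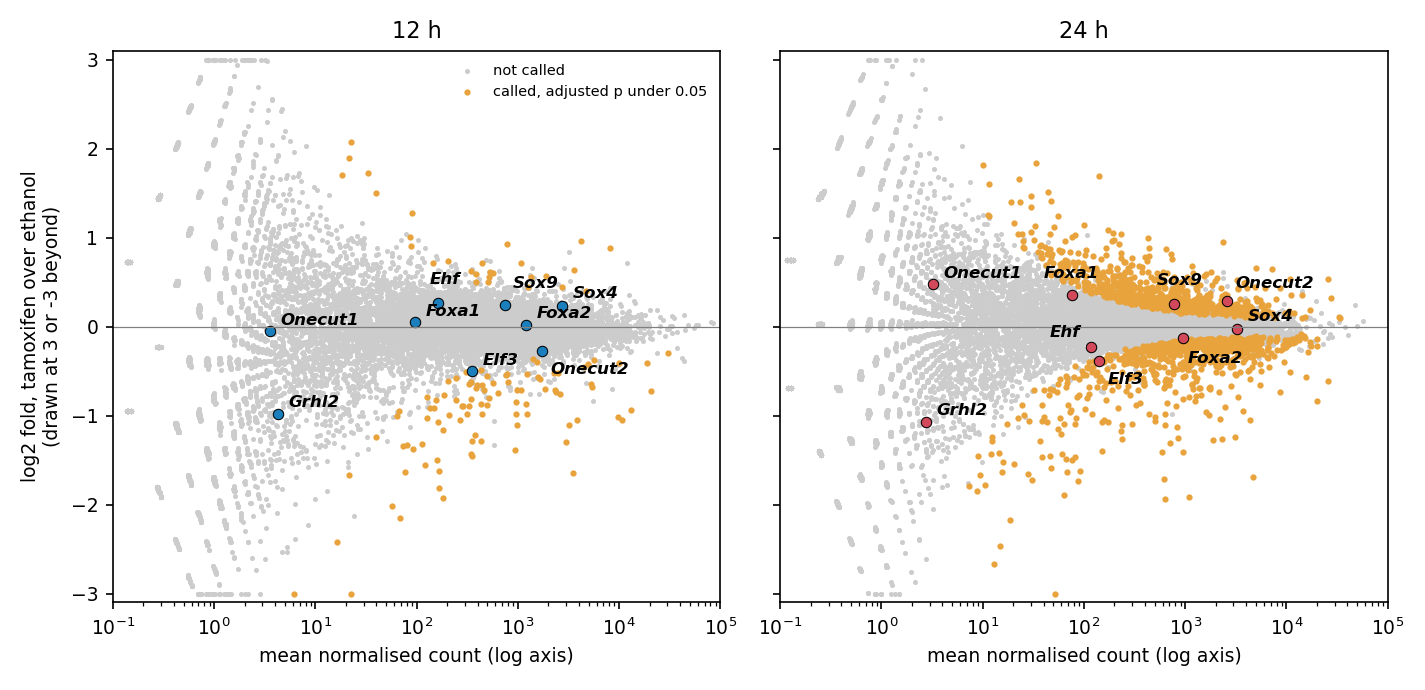
Mean normalised count (log axis) against log2 fold of tamoxifen over ethanol for all genes with a fold at 12 h (left) and 24 h (right), called genes in orange and the 9 genes as labelled points. At 24 h Onecut2 lies among called genes, the other 6 expressed genes are not called, and Onecut1 and Grhl2 lie in the range of low means where no gene was called.

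Levels also differed between the times, which were normalised separately and hold different libraries, so these ratios were not tested. In ethanol alone, the implied share of Elf3 in all normalised counts at 24 h was 0.445 times that at 12 h. The same ratio was 1.42 for Onecut2, 1.56 for Sox4, 1.22 for Sox9, 0.974 for Foxa2, 1.01 for Ehf and 0.836 for Foxa1. The level of Elf3 thus differed more between the times in ethanol than between tamoxifen and ethanol at either time.

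Other transcription factors of liver and bile duct moved both ways at 24 h. Of 19 listed, 16 had an adjusted p, of which 4 rose and 2 fell at 24 h per the authors' deposited table, beside 12.4% called over all genes. At 12 h 0 were called, with 3 higher and 2 lower at an unadjusted p under 0.05, in the authors' deposited table by DESeq2. The shares over all genes at 12 h were 0.943% called and 4.9% at an unadjusted p under 0.05. The median log2 fold of the 16 was 0.11 at 24 h in the authors' deposited table. It was 0.01 over all 15819 genes with a fold at any level, and -0.004 over genes with a mean of at least 50. Glis3, a zinc finger factor needed in bile ducts and pancreas, rose by 0.36 (SE 0.07, adjusted p of 2.87e-05) in the authors' deposited table. Hey1, a repressor induced by Notch, fell by 1.63 (SE 0.40) from a low mean of 15.5, and Cebpb, a leucine zipper factor of the acute phase, fell by 0.30 (SE 0.08), in the authors' deposited table. Their adjusted p were 0.000847 and 0.00280. Hnf4a, the nuclear receptor of hepatocyte identity, was the most abundant of the list, with a mean of 4146 at 24 h, and had a log2 fold of 0.13 (SE 0.09) and an adjusted p of 0.367, per the authors' deposited table.

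Among 18 further epithelial factors, 10 had an adjusted p at 24 h, of which 2 rose and 1 fell per the authors' deposited table. At 12 h 0 were called by DESeq2, with 1, Tfcp2l1, at an unadjusted p under 0.05, in the authors' deposited table. The grainyhead-related Tfcp2l1 rose by 0.60 (SE 0.18, adjusted p of 0.0152) in the authors' deposited table. The ETS factor Elf1 fell by 0.23 (SE 0.06, adjusted p of 0.00489) in the authors' deposited table. Of 20 other Sox and forkhead genes 12 had an adjusted p at 24 h, and 1, Foxq1, fell, by 0.22 (SE 0.07, adjusted p of 0.0169) in the authors' deposited table. The 7 factors of epithelial-to-mesenchymal transition held 0 called genes at either time by DESeq2's Wald test in the authors' deposited tables, with 4 testable at 12 h and 5 at 24 h, and 0 genes at an unadjusted p under 0.05 at either time. Their most abundant members at 24 h, Zeb1 and Snai2, had log2 folds of 0.12 (SE 0.06) and 0.10 (SE 0.09), per the authors' deposited table. Beside these lists, 12.4% of all genes with an adjusted p were called at 24 h and 0.943% at 12 h. At an unadjusted p under 0.05 the shares over all genes were 18.0% at 24 h and 4.9% at 12 h.

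**Figure D4:**
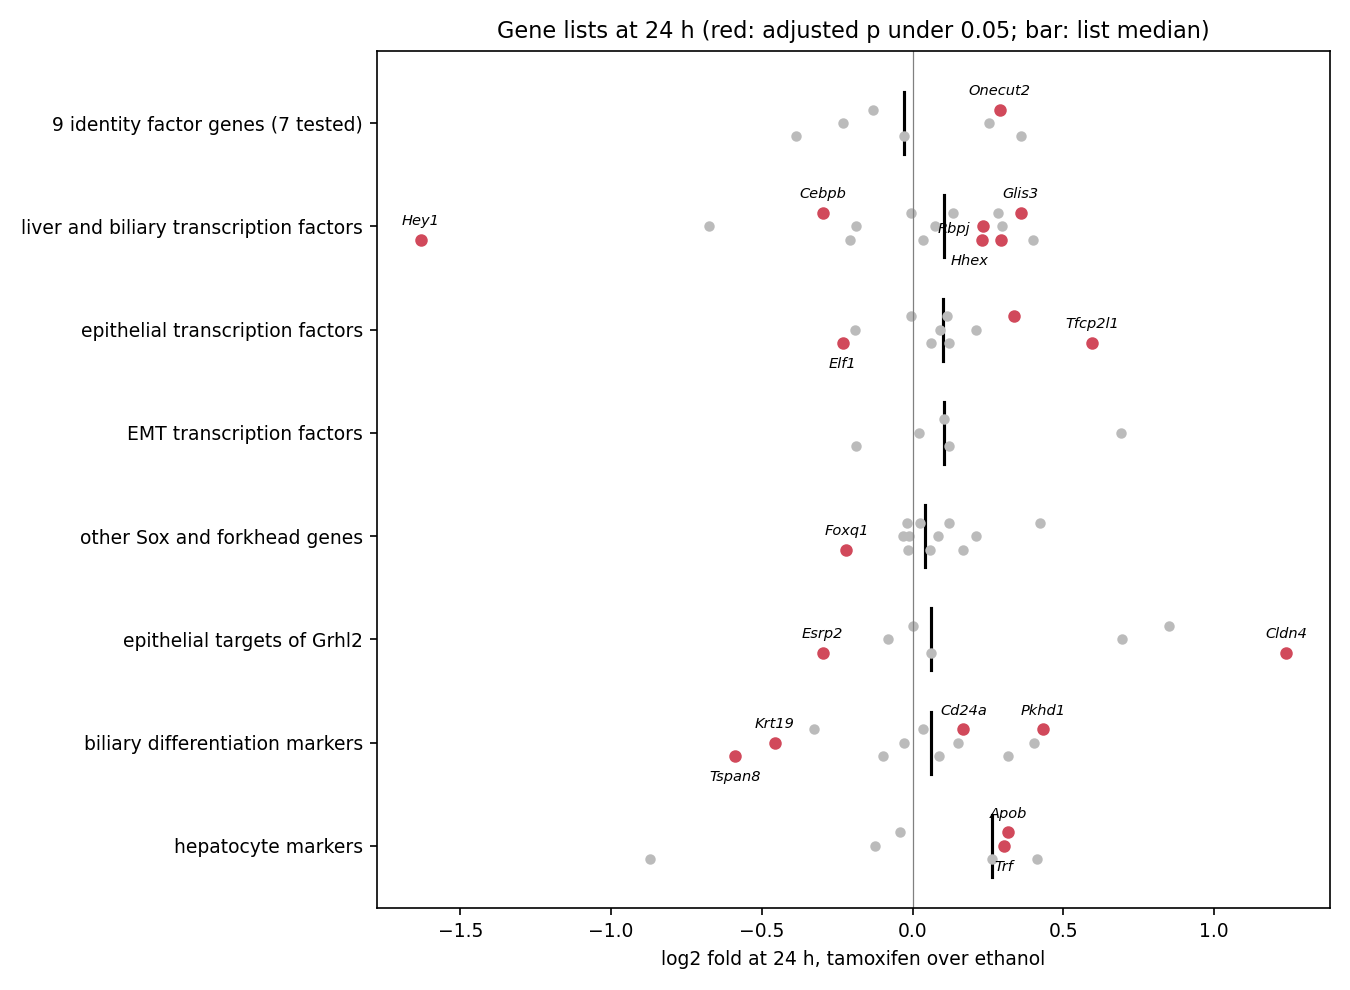
Log2 fold at 24 h of the members with an adjusted p in each list, 1 point per gene, red where the adjusted p is under 0.05 and named for some of these, with the list median as a black bar. Called genes lie on both sides of 0 in the lists of liver and biliary factors, epithelial factors, Grhl2 targets and biliary markers.

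Markers of cell identity moved beside these factors. Of 19 biliary markers 12 had an adjusted p at 24 h, of which 2 rose and 2 fell per the authors' deposited table. Over all genes 12.4% were called at 24 h. Pkhd1, which encodes the cilium protein fibrocystin, rose by 0.43 (SE 0.14, adjusted p of 0.0235), and the surface protein gene Cd24a by 0.17 (SE 0.05, adjusted p of 0.0113), in the authors' deposited table. The keratin gene Krt19 fell by 0.46 (SE 0.09, adjusted p of 2.92e-05) and the tetraspanin gene Tspan8 by 0.59 (SE 0.08), in the authors' deposited table. Krt7 was the 1 called at 12 h, with a log2 fold of -0.80 (SE 0.17) and an adjusted p of 0.000639, per the authors' deposited table. At 24 h Krt7 was not called, with a log2 fold of -0.33 (SE 0.18) and an adjusted p of 0.250, in the authors' deposited table. Over all genes 0.943% were called at 12 h, and 4.9% were at an unadjusted p under 0.05. Of 13 hepatocyte markers 7 had an adjusted p at 24 h, of which 2 rose per the authors' deposited table. Those were Apob, the apolipoprotein of secreted lipoproteins, at 0.32 (SE 0.09, adjusted p of 0.00538), and the transferrin gene Trf at 0.30 (SE 0.07, adjusted p of 0.000696), in the authors' deposited table. The summed implied level of the hepatocyte list was 25502 normalised counts in tamoxifen and 17846 in ethanol at 12 h, and 37305 in tamoxifen and 30138 in ethanol at 24 h. Most of that sum was Apob, with means of 11906 of a summed 22221 at 12 h and 27450 of 33722 at 24 h in the authors' deposited tables. At 12 h Apob had a log2 fold of 0.72 (SE 0.51, adjusted p of 0.999), and 0 of 9 hepatocyte markers were called, with 1 at an unadjusted p under 0.05, by DESeq2 in the authors' deposited table. Trf had means of 8127 and 5452, Apoa1 of 1291 and 448, Ttr of 685 and 267, and Afp of 176 and 80.0 in the authors' deposited tables. In the same list Cyp2e1 was at 0, Alb had means of 3.68 and 1.48, and the remaining genes did not exceed 12.6 in the authors' deposited tables. In the immune list the summed level was 1018 in tamoxifen and 1328 in ethanol at 12 h, and 376 in tamoxifen and 559 in ethanol at 24 h. Most of it was Cd14, a receptor for bacterial lipopolysaccharide, which fell by 0.66 (SE 0.08) at 24 h in the authors' deposited table, while Adgre1 and Cd3e were at 0. The part of these markers in the folds of the 9 genes was not tested.

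By distance between the pairs of folds at 12 h and 24 h, listed genes most like each expressed member were found, over 2 comparisons and 54 candidate genes with a mean of at least 50. The nearest to Elf3 was Esrp2, at a distance of 0.10, with log2 folds of -0.45 and -0.30, and next Krt19 at 0.21. Foxo3 lay nearest to Sox4 at 0.02, Cd68 nearest to Foxa2 at 0.05 and Foxq1 nearest to Ehf at 0.07. Among the 2 nearest genes were Rbpj for Sox9, at 0.06, and Spp1 for Foxa1, at 0.07. Onecut2 had no close neighbour in the list, with Sox13 and Hhex both at 0.22. With 2 values per gene, such closeness describes these folds and no more.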

How the data were processed

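RNA was measured by single-end RNA-seq in 15 libraries (4 tamoxifen and 3 ethanol at 12 h, 4 tamoxifen and 4 ethanol at 24 h), grouped by their titles. The labels' protocols name the TruSeq RNA kit, v2, which does not mark the strand. HISAT2, DESeq2 and mm10 are named in the submitters' processing notes, with no role or version. How reads were counted, with which annotation and in which model, is not given in the sources used here. Per the file headers, the deposited tables give for each gene and time the mean normalised count, a signal on the count scale, the log2 fold change, its SE on the log2 scale, the Wald score, and its p-value before and after adjustment. No count or value per library was analysed, so DESeq2 was not rerun and edgeR's test could not be fitted. Adjusted p-values are given by the authors for 13044 of 15704 genes with a p at 12 h and 11648 of 15819 at 24 h.

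The direction of the folds was checked at 12 h: genes with 1 read in all fall on 7 lowest means, 4 with positive and 3 with negative folds, which matches 4 tamoxifen and 3 ethanol libraries. At 24 h the groups are of equal size, and the direction was taken to be the same. The members and gene lists were chosen with earlier results of these data known. Computed here were 95% intervals, the level of each group implied by the mean, the fold and the group sizes, the weighted estimate over both times and the difference between times with Benjamini-Hochberg adjustment over 14981 genes, and the running median SE. These tests were also tried on simulated data. Exon lengths and overlaps come from GENCODE on GRCm38 and promoters from RefSeq. The named genes are the 9 members, Klf5, up to 4 called genes with the smallest p of each list, and the 2 nearest listed genes of each member with a mean of at least 50; any other gene named was chosen after its values were seen. Some genes that this rule names are not reported here, though the counts of their lists include them. Intervals cover what the SE holds. Python 3.11.15 was used with scipy 1.17.1, pandas 2.3.3, numpy 2.4.6 and, for figures, matplotlib 3.10.9. Adjusting over other genes, another adjustment, other thresholds, centred folds and a larger SE were tried as alternatives.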

Additional observations from a re-analysis of the deposited data

How the results depend on the processing

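Counts of called members moved in 2 of 26 settings: at an adjusted p under 0.1, 1 member was called at 12 h (Elf3) in place of 0, and 3 at 24 h (Onecut2, Sox9 and Elf3) in place of 1. The other 24 gave counts within 1.5 times, and in 2 of these Sox9 joined Onecut2 and Elf3 in the estimate over both times. Onecut2 was called at 24 h in all 7 settings (adjusted p of 5.52e-05 to 0.000905), and Elf3 over both times in all 6 (0.000676 to 0.009999). Centring the folds and raising the SE changed no call of a single member within a time. The call of Elf3 needs both times, since it is lost at either alone (adjusted p of 0.0966 and 0.0757). Depth limits Onecut1 and Grhl2. No paired analysis was possible because the tables hold no value per library, and for the same reason no library could be left out in turn.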
